A study of Danio rerio with 60 samples.

Results

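Exocrine pancreas digestive enzyme genes were followed in whole zebrafish larvae exposed to raloxifene or resorcinol. The set was chosen by gene symbol, in any case, as every row of both tables named for a trypsin, chymotrypsin, elastase, pancreatic carboxypeptidase, bile salt-dependent lipase, pancreatic amylase, phospholipase A2 group 1B, syncollin, PTF1A or pdia2. It held 35 genes, all present in both tables, of 27281 genes in the raloxifene table and 27488 in the resorcinol table. No row was named for pancreatic lipase, colipase or glycoprotein GP2, which the rule also covered. Symbols in capitals come from a reference name table in which duplicated zebrafish genes share a human-style symbol, so the identifier is given where a symbol occurs more than once.

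Each of the 60 samples was RNA from a pool of 20 whole larvae of the AB/Tub background, kept in buffered E3 medium at 28 °C from 72 to 120 hours after fertilization. The raloxifene series, on a compound that binds estrogen receptors and acts on them by tissue, ran at 20.1, 2.01, 0.201, 0.0201 and 0.00201 µM with a control of 0.5% carrier. The series on resorcinol, a simple phenol with a pair of hydroxyl groups, ran at 405, 40.5, 4.05, 0.405 and 0.0405 µM with a control of 1% carrier. What the carrier was is not stated in the labels, and the sample titles give a carrier share only for the controls. There were 12 groups of 5 pools, with replicate numbers 1 to 5 whose meaning no label gives. Resorcinol was taken from the description of a dosed sample, because its title bears raloxifene's abbreviation instead.

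Acinar cells of the exocrine pancreas make digestive enzymes, many of them, such as the proteases, as inactive precursors, the zymogens. They fold the enzymes in the endoplasmic reticulum and store them in granules. Trypsin, once active in the gut lumen, cleaves the other protease precursors into their active forms. PTF1A is a transcription factor that specifies acinar cells and drives zymogen genes, and it also acts in neural progenitors. In zebrafish the exocrine pancreas is in place, and larvae turn from yolk to feeding, over the days covered by the exposure. Because the samples were whole larvae, fewer acinar cells and less enzyme mRNA per acinar cell cannot be told apart in any value below.

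Levels are normalized counts, read counts divided by 1 factor per library by the authors, and are compared between groups only within 1 compound's table. No gene lengths were used, so an order of different genes by normalized count, used only to pick 1 gene of each role class to describe, is not an order of expression. Recovered depth was 7436164 to 10980576 reads in the raloxifene libraries and 7778291 to 12127309 in the resorcinol libraries, except replicate 1 at 405 µM with 30737132. The set took at most 0.788% of the reads of a library. Of the 35 genes, 31 reached a normalized count of 10 in at least 5 raloxifene libraries and 32 did so in the resorcinol libraries, and only these were tested. 3 genes, sycn.1 and SYCN ENSDARG00000090899 among them, were tested in neither table, and CELA1 ENSDARG00000043175 was tested only for resorcinol. By neighbour order in the RefSeq annotation of GRCz12tu, prss59.1 and prss59.2, the run cela1.2 to cela1.5, the run ctrb.3 to ctrb.1, and the pair ela2l and ela2 lie next to each other. How the counting divided reads between such similar copies is not given, so values of single members of these runs are uncertain.

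At the highest dose of each compound most of the enzyme genes had higher mean levels than in the carrier control, and the pools of dose and control overlapped. Most were also above the control at some lower doses, as at 0.00201 µM raloxifene, with 29 of 31. At 405 µM resorcinol the summed level of the 35 genes was 1.73-fold that of the control, and at 20.1 µM raloxifene it was 1.83-fold. In a model without the replicate number, which leaves the spread between numbers in its error, no member passed the test at either dose. Of all genes, 0.0306% did so at 405 µM and 0.0936% at 20.1 µM. When pools of the same replicate number were compared, CEL ENSDARG00000017490 was among 2 members that rose at 405 µM resorcinol and ctrl rose at 20.1 µM raloxifene. These were 2 of 32 tested members, beside 0.327% of all genes called, and 1 of 31, beside 1.26%. The calls of CEL ENSDARG00000017490 and ctrl were lost when some single replicate numbers were left out. No member passed a limma test at any lower dose, with or without the replicate number, where at most 0.0987% of all genes did.

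In the resorcinol control pools, replicates 1 to 5, the summed normalized count was 12375, 24996, 29366, 6410.3 and 41782, a mean of 22986 ± 14012 (SD, n = 5). At 405 µM it was 39262, 44193, 48549, 12662 and 53881, a mean of 39709.6 ± 16053 (SD, n = 5). The groups overlapped, but each 405 µM pool lay above the control pool of its own number, by 1.29- to 3.17-fold. The largest fold was that of replicate 1, whose 405 µM library had 30737132 reads against 7921670 in its control. In that pair the set took 0.319% of reads at 405 µM and 0.126% in the control. Within a replicate number, the 405 µM pool had the highest sum of the 6 pools for 4 of 5 numbers. The exception was replicate 5, where the 40.5 µM pool reached 57276. As a share of all reads the set was also higher in 5 of 5 pairs, with means of 0.251% ± 0.156 in the control and 0.423% ± 0.197 at 405 µM (SD, n = 5).

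In the raloxifene control pools the summed normalized count was 28963, 9290, 3021, 24218 and 3648, a mean of 13828 ± 12021 (SD, n = 5). At 20.1 µM it was 27349, 23189, 5031, 66680.1 and 4156, a mean of 25281 ± 25391 (SD, n = 5). The groups overlapped, and replicate 4 at 20.1 µM was the highest of the 30 raloxifene pools. The sum was higher in 4 of 5 pairs, with pair folds from 0.944 to 2.75, and the 20.1 µM pool was the highest of its number for 2 of 5 numbers. As a share of reads the set was higher in 5 of 5 pairs, with means of 0.143% ± 0.121 in the control and 0.280% ± 0.301 at 20.1 µM (SD, n = 5). Sums at the lower raloxifene doses had means between 12670.0 and 18053, and those at the lower resorcinol doses between 21913 and 26675.

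**Figure D1:**
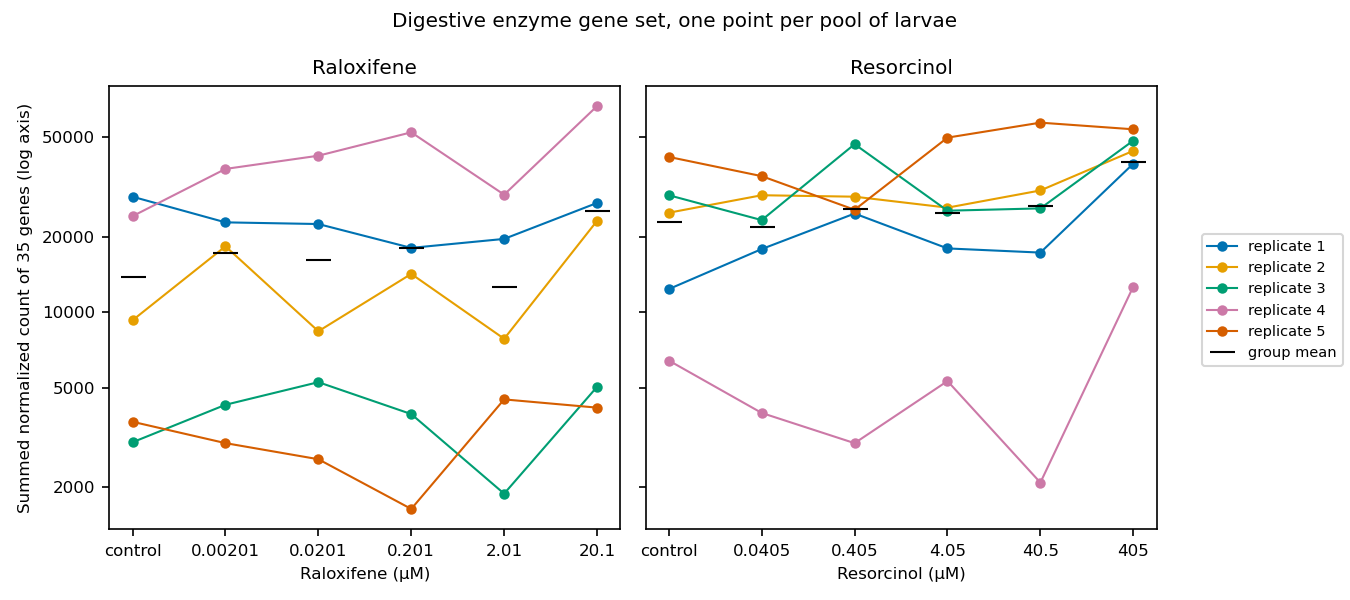
Summed normalized count of the 35 genes (log axis) against dose in µM, with 1 point per pool, 1 colour per replicate number joined by a line, and a dash for each group mean (n = 5). Lines keep their order across doses more than they follow dose: raloxifene sums run from 1635 to 66680 and resorcinol sums from 2084 to 57276, while 4 of 5 resorcinol lines end at their highest point.

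The replicate number set most of the spread. Averaged over the 6 pools of a number, the summed level in the raloxifene table was 23239, 13547, 3895, 42077 and 3250.4 for replicates 1 to 5. In the resorcinol table it was 21608, 30733, 33288, 5569 and 43922. Replicate 4 was thus the highest raloxifene number and the lowest resorcinol number. Among single genes, 27 of 31 tested members had their highest raloxifene mean in replicate 4 and 27 their lowest in replicate 5. Of 32 members tested for resorcinol, 25 were highest in replicate 5 and 29 lowest in replicate 4.

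For the median member, the replicate number took 86.2% of the variance of log2 levels among raloxifene libraries, and the dose group 3.90%. Among resorcinol libraries the values were 81.7% and 7.85%. Over all genes tested the medians were 72.7% and 5.75% for raloxifene, and 66.4% and 6.18% for resorcinol. The highest replicate-number mean of a member exceeded the lowest by a median of 13.6-fold in the raloxifene table and 9.43-fold in the resorcinol table, where the medians over all genes were 1.96- and 1.82-fold. As a description, marker levels of other organs differed by number in unlike ways. The mean summed level of the endocrine pancreas list was lowest in raloxifene replicate 4 (4727) and resorcinol replicate 5 (5148), where the enzymes were highest. For the pancreatic duct list it stayed between 3256 and 3584 in the raloxifene table. For the liver list it was highest where the enzymes were, at 94423 in raloxifene replicate 4 and 87926 in resorcinol replicate 5. The intestinal enterocyte list was highest in the same numbers, at 35110 and 44374. It was also lowest where the enzymes were, at 11197 in raloxifene replicate 5 and 10635 in resorcinol replicate 4. The summed level of 17 liver genes was 89681 and 98718 in the control and 20.1 µM raloxifene pools of replicate 4, and 8707 to 19053 in the other pools of these groups. The part of liver size, feeding state or pool make-up in the enzyme levels was not tested.

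**Figure D2:**
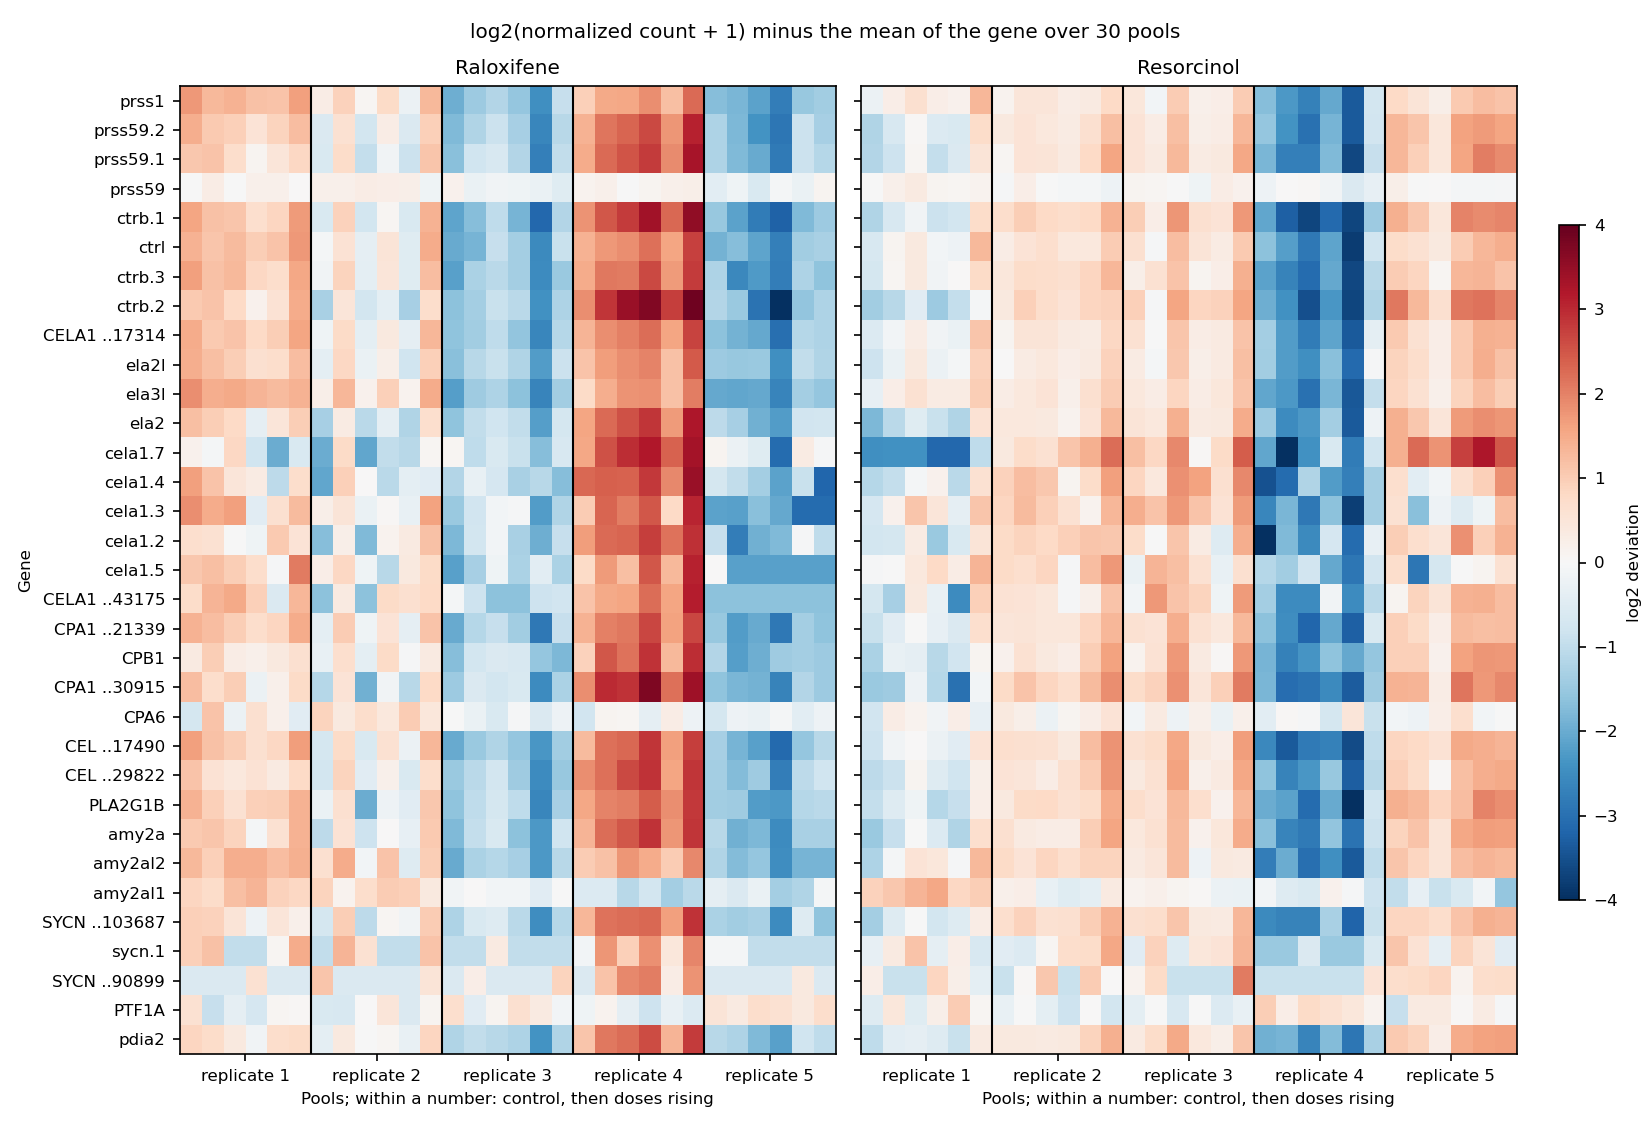
Heat map of genes of the set (rows, ordered by role) in 30 raloxifene and 30 resorcinol pools (columns, grouped by replicate number and then by rising dose), coloured by log2(normalized count + 1) minus the mean of the gene in that table. Blocks of replicate 4 are red for raloxifene and blue for resorcinol in nearly every row, and among tested genes the rows prss59, CPA6, amy2al1 and PTF1A lack this pattern.

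The members also moved together from library to library. The correlation of a member with the mean log2 level of the other members had a median of 0.966 over 30 raloxifene libraries and 0.956 over 30 resorcinol libraries. It was over 0.8 for 26 of 31 and 26 of 32 members. These points share library, depth and replicate number, and with the replicate-number means removed the medians were 0.898 and 0.916. Members are therefore not separate observations of a dose, and a count of members that differ in 1 direction repeats much of the same information.

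4 genes of the set stood apart in both tables. PTF1A had correlations of -0.59 and -0.58 with the other members, in the raloxifene and resorcinol tables. The amylase gene amy2al1 had 0.033 and -0.12. CPA6, whose human counterpart is an extracellular matrix carboxypeptidase rather than a pancreatic enzyme, had 0.12 and 0.26, and prss59 had 0.53 and 0.37. The values of cela1.7 were 0.72 and 0.80, and cela1.5 reached 0.64 in the resorcinol table.

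**Figure D3:**
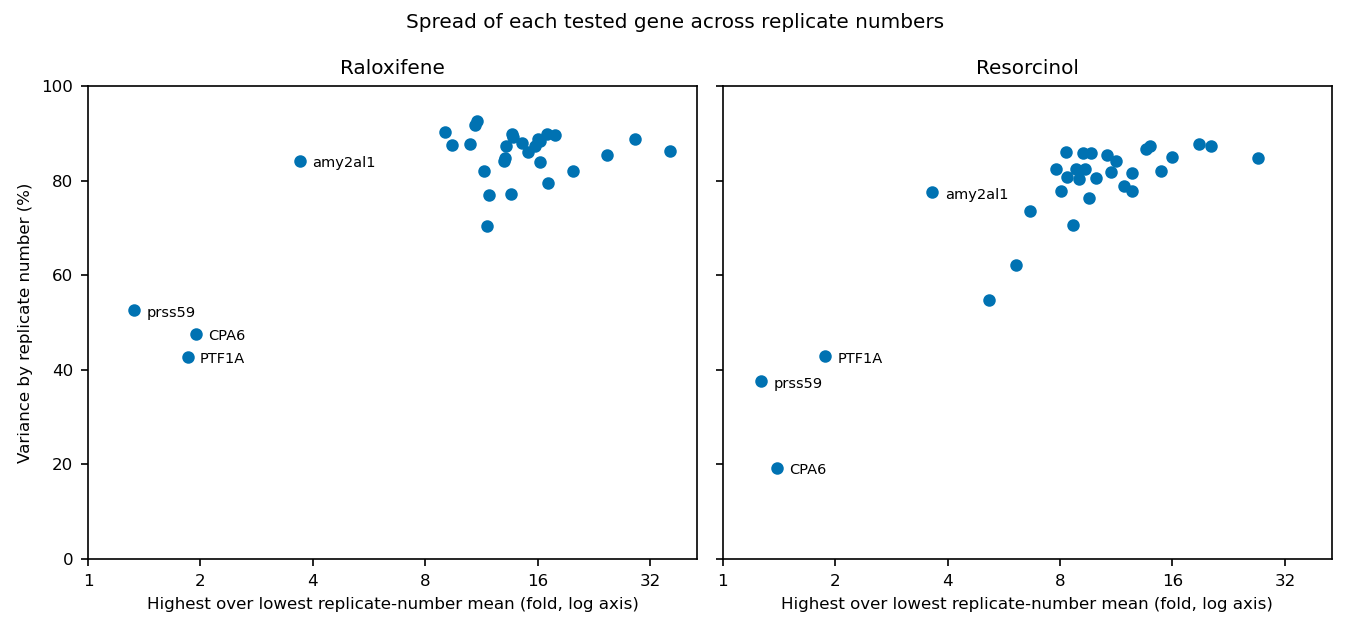
Share of the variance of log2 levels taken by the replicate number (percent) against the highest over lowest replicate-number mean (fold, log axis), with 1 point per tested member. Most members lie above 70% and 5-fold, whereas prss59, CPA6 and PTF1A stay under 2-fold in both tables.

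The trypsin genes include prss1, trypsin itself. In the resorcinol control its normalized count was 3492, 4553, 5646, 1272 and 7137 in replicates 1 to 5, and at 405 µM it was 10361, 7087, 8402, 2463 and 9015. All 5 pools at 405 µM lay above the control of their number, while the groups overlapped. The log2 change was 0.81 (SE 0.76), and with the replicate block it had SE 0.25, adjusted p = 0.218 by limma. In the raloxifene control prss1 was at 7940.5, 2924, 613, 4578 and 719, and at 20.1 µM at 7302, 5829, 1241, 11431 and 893. Replicate 1 was lower at 20.1 µM than in its control and the other 4 were higher, with a log2 change of 0.70 (SE 1.00) and, with the block, SE 0.22, adjusted p = 0.124 by limma. The trypsin family genes prss59.1 and prss59.2 had log2 changes of 1.12 and 0.92 at 405 µM and 0.82 and 0.71 at 20.1 µM. The gene prss59 had a log2 change of -0.07 at 405 µM and -0.07 at 20.1 µM.

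Chymotrypsins cut proteins after large hydrophobic residues. The normalized count of ctrl, a chymotrypsin-like protease, was 1390.3, 502, 132, 1396 and 144 in the raloxifene control and 1768, 1498, 289, 3535 and 215 at 20.1 µM. The groups overlapped, and every 20.1 µM pool was above the control of its number. The log2 change was 0.99 (SE 1.03), and with the replicate block ctrl rose, with SE 0.24, adjusted p = 0.0327 by limma and an adjusted p of 0.0175 by edgeR's quasi-likelihood test. The limma call with the block was kept without replicate 1 or 5 and lost without replicate 2, 3 or 4. For resorcinol, ctrl was at 671, 1269.9, 1624, 333 and 1749 in the control and 2546, 2113, 2147, 594 and 2854 at 405 µM, again higher in 5 of 5 pairs. Its log2 change there was 0.92 (SE 0.81) and, with the block, SE 0.29, adjusted p = 0.221 by limma.

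The chymotrypsinogen gene ctrb.1 had normalized counts of 450.5, 1664, 2035, 244 and 2747 in the resorcinol control and 1722, 2704, 3402, 375 and 4009 at 405 µM. It was higher in 5 of 5 pairs, with overlapping groups and a log2 change of 0.91 (SE 1.08). In the raloxifene control it was at 1151, 248, 88.3, 1324 and 133, and at 20.1 µM at 1230.1, 1008, 168, 4477 and 138. Replicates 2 to 4 carried the difference, and replicates 1 and 5 were close to their controls, with a log2 change of 0.97 (SE 1.27). The neighbours ctrb.2 and ctrb.3 had log2 changes of 0.61 and 0.95 at 405 µM and 0.96 and 0.59 at 20.1 µM.

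Elastases formed the class with the most members, 10. The elastase with the highest mean normalized count, CELA1 ENSDARG00000017314, was at 1721, 2695, 3811, 970.4 and 5233 in the resorcinol control and 5392, 4517, 5542, 1931 and 6603 at 405 µM. It was higher in 5 of 5 pairs with overlapping groups, a log2 change of 0.85 (SE 0.76). In the raloxifene control it was at 3741, 1184, 436, 3381 and 422, and at 20.1 µM at 3939, 3289, 598, 8549 and 558. It was higher in 5 of 5 pairs there too, with a log2 change of 0.75 (SE 1.03). All 10 tested elastases had positive log2 changes at 405 µM, from 0.71 for cela1.5 to 1.36 for cela1.4, and 8 of 9 did so at 20.1 µM, where cela1.4 was at -0.22. None of them passed the test. The genes cela1.2 to cela1.5 and cela1.7 had control means of at most 27.5 normalized counts, so counting error weighs more on them.

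Carboxypeptidases remove single residues from the end of a peptide chain. CPA1 ENSDARG00000021339 was at 809, 2109, 2296, 483 and 2907 in the resorcinol control and 2403, 3795, 3694, 979 and 3523 at 405 µM, higher in 5 of 5 pairs. Its log2 changes were 0.88 (SE 0.82) at 405 µM and 0.79 (SE 1.06) at 20.1 µM raloxifene, where it was higher in 4 of 5 pairs. CPB1, which removes basic residues, had a log2 change of 1.11 (SE 0.83) at 405 µM and passed only edgeR's quasi-likelihood test with the replicate block (adjusted p = 0.0496). CPA6 was at 0.11 and 0.14.

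The lipid-digesting members were the bile salt-dependent lipases, which cleave cholesterol and other esters, and PLA2G1B, which releases fatty acids from phospholipids. CEL ENSDARG00000017490 had normalized counts of 151, 427, 413, 44.1 and 484 in the resorcinol control and 391, 943, 856, 132 and 688 at 405 µM. The groups overlapped and 5 of 5 pairs were higher, with a log2 change of 1.13 (SE 0.97). With the replicate block it rose, with SE 0.26, adjusted p = 0.0483 by limma and 0.0263 by edgeR's quasi-likelihood test. The limma call with the block was kept without replicate 5 and lost without any one of replicates 1 to 4. For raloxifene it was at 347, 67.5, 26.8, 268 and 43.5 in the control and 356, 281, 41.8, 767 and 51.0 at 20.1 µM, higher in 5 of 5 pairs. That log2 change was 0.89 (SE 1.09).

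The other lipase, CEL ENSDARG00000029822, had log2 changes of 0.94 at 405 µM and 0.53 at 20.1 µM. PLA2G1B was at 37.3, 97.0, 121, 17.9 and 197 in the resorcinol control and 87.2, 205, 186, 42.1 and 266 at 405 µM. It was higher in 5 of 5 pairs with overlapping groups, a log2 change of 0.90 (SE 0.98). At 20.1 µM raloxifene its log2 change was 0.65 (SE 1.01), and it was higher in 4 of 5 pairs.

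Amylase breaks down starch. The normalized count of amy2a was 203, 893, 771, 178 and 1056 in the resorcinol control and 912, 1709, 1595, 314 and 1792 at 405 µM. Every pair was higher, replicate 1 the most, with overlapping groups and a log2 change of 1.15 (SE 0.84). In the raloxifene control it was at 575, 132, 80.4, 703 and 126, and at 20.1 µM at 716, 571, 159, 2007 and 112. Replicate 5 was lower and the other 4 pairs were higher, with a log2 change of 0.95 (SE 1.01). The related amy2al2 was at 0.93 and 0.33 on the log2 scale of change, and amy2al1 at -0.29 and -0.13.

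Syncollin, encoded by SYCN, sits on the inner face of the zymogen granule membrane, and pdia2 encodes a disulfide isomerase of the pancreas that helps enzymes to fold. SYCN ENSDARG00000103687 was at 83.4, 341, 333, 35.8 and 388 in the resorcinol control and 262, 572, 548, 116 and 556 at 405 µM. It was higher in 5 of 5 pairs with overlapping groups, a log2 change of 1.06 (SE 0.85). With the block its adjusted p was 0.0601 by limma and 0.0405 by edgeR's quasi-likelihood test. In the raloxifene groups its log2 change at 20.1 µM was 0.45 (SE 0.92). It was -0.21 without the 20.1 µM pool of replicate 4, in a fit without the block. That fit kept the control pool of replicate 4, so the groups no longer held the same numbers.

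The level of pdia2 was 64.7, 174, 173, 34.6 and 278 in the resorcinol control and 170.5, 361, 288, 53.9 and 416 at 405 µM. All 5 pairs were higher and the groups overlapped, with a log2 change of 0.87 (SE 0.80). At 20.1 µM raloxifene the log2 change was 0.58 (SE 0.90). It was -0.01 without the 20.1 µM pool of replicate 4, in a fit without the block that kept the control pool of that number.

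PTF1A did not follow the enzymes. Its normalized count was 12.4, 14.8, 13.8, 37.0 and 9.15 in the resorcinol control and 19.2, 10.6, 14.5, 20.2 and 17.5 at 405 µM. Replicate 4 of the control, where enzyme levels were lowest, had the highest PTF1A count, and the groups overlapped. The log2 change was 0.05 (SE 0.34), and its sign turned under edgeR and DESeq2, at -0.06 with each tool. In the raloxifene control PTF1A was at 32.6, 13.3, 33.7, 18.5 and 30.2, and at 20.1 µM at 21.6, 22.4, 19.2, 14.1 and 34.4, a log2 change of -0.17 (SE 0.34). In whole larvae its counts also include any from neural progenitors.

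In the limma fit without the replicate block, 0 of 32 tested members passed an adjusted p of 0.05 at 405 µM, where 0.0306% of all genes did. At 20.1 µM the count was 0 of 31, beside 0.0936% of all genes. Neither edgeR nor DESeq2 on recovered reads called a member without the block, and no member had an unadjusted p under 0.05 at either dose by limma, where 1.54% and 2.32% of all genes did. The median log2 change of the members was 0.93 at 405 µM and 0.67 at 20.1 µM, with 30 of 32 and 27 of 31 above 0, while the medians over all genes tested were 0.00 and -0.01. The median standard error of a member was 0.842 for resorcinol and 1.02 for raloxifene. A fit without the block leaves the spread between replicate numbers in its error. That spread was a median of 13.6- and 9.43-fold for members in the raloxifene and resorcinol tables, against 1.96- and 1.82-fold over all genes. The 0 calls therefore cannot tell an absent change from one hidden by that spread, nor rank the members against other genes.

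With the replicate block the median standard errors were 0.287 and 0.309. Then 2 of 32 members were called at 405 µM, both higher, where 0.174% of all genes were called higher and 0.327% in either direction. At 20.1 µM 1 of 31 was called, beside 0.873% of genes called higher and 1.26% in either direction. Unadjusted p-values under 0.05 were found for 26 of 32 members at 405 µM, against 10.8% of all genes, and for 15 of 31 at 20.1 µM, against 12.3%. Those members were all higher at the high dose. With edgeR and the block, 4 of 32 were called at 405 µM, where 0.26% of genes were called higher and 0.429% in either direction. At 20.1 µM edgeR called 1 of 31, beside 0.826% and 1.2%.

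Counted by pairs, 26 of 32 members were higher at 405 µM in 5 of 5 pairs, where 6.93% of all genes were. At 20.1 µM 4 of 31 were, against 5.24% of all genes. The 4 were ctrl, ctrb.1, CELA1 ENSDARG00000017314 and CEL ENSDARG00000017490. By replicate number, the median fold of the members at 405 µM was 2.87, 1.72, 1.67, 1.89 and 1.38 for replicates 1 to 5. At 20.1 µM it was 0.944, 2.78, 1.54, 2.53 and 1.07, so pairs 2 and 4 were the high ones and pairs 1 and 5 lay near 1. For no member did the 2 groups fail to overlap, where 0.322% and 0.561% of all genes did at 405 and 20.1 µM. This count ignores the pairing. Ranges overlap easily where replicate numbers differ as widely as they did for most members, so it says little about dose.

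**Figure D4:**
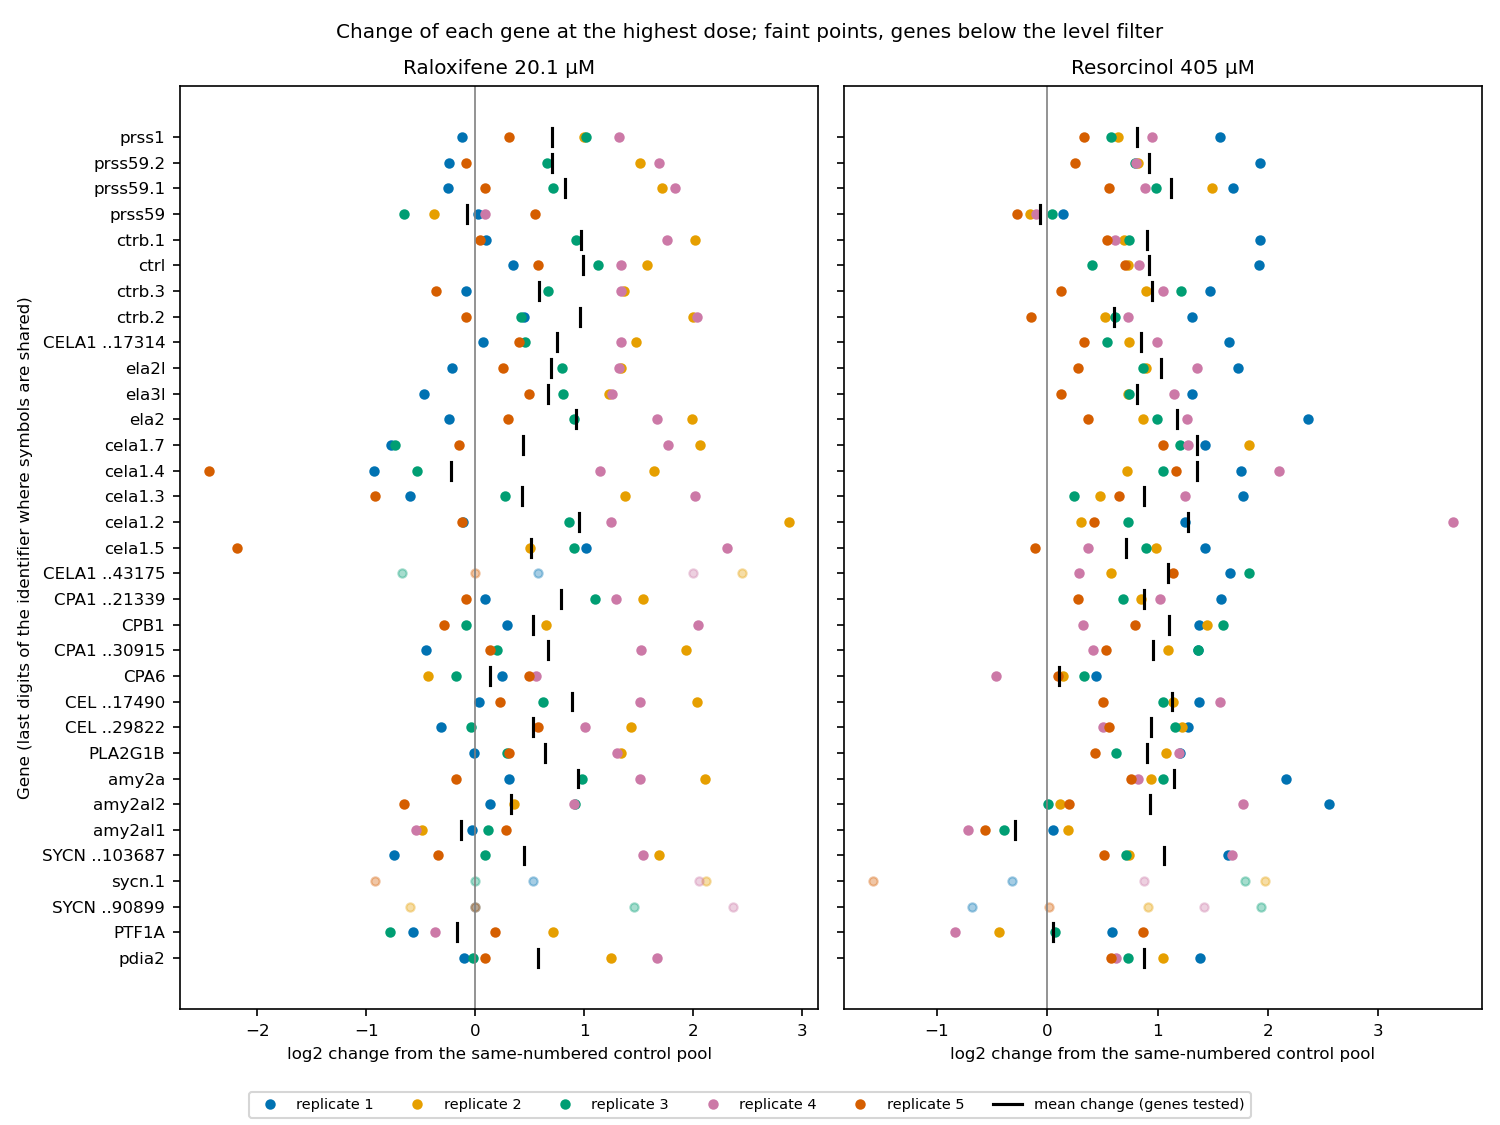
Log2 change of each gene shown from the carrier control pool of the same replicate number, on log2(normalized count + 1), at 20.1 µM raloxifene and 405 µM resorcinol; points are pairs, bars the mean change of tested genes, and faint points genes not tested. At 405 µM nearly all points lie right of 0, whereas at 20.1 µM points of replicates 1 and 5 lie on both sides; the far point of cela1.2 at 405 µM rests on a control count of 0.

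At the lower doses the members showed no steady course with dose. Median log2 changes for raloxifene were -0.19 at 2.01 µM, 0.03 at 0.201 µM, 0.14 at 0.0201 µM and 0.38 at 0.00201 µM. Members above 0 were, in the same order, 5, 19, 25 and 29 of 31. At 0.201 µM the median was 0.42 with edgeR and 0.43 with DESeq2, with 30 of 31 members above 0. For resorcinol the medians were -0.02 at 40.5 µM, 0.14 at 4.05 µM, 0.10 at 0.405 µM and -0.07 at 0.0405 µM. Members above 0 were, in the same order, 15, 26, 26 and 14 of 32. At 40.5 µM the median was 0.23 with edgeR and 0.22 with DESeq2, each with 26 of 32 members above 0. In the fit without the block, leaving out 1 pool could turn the sign of the median at each of these 8 dose groups. The range at 0.201 µM raloxifene, for example, was -0.61 to 0.61. The same-numbered pools of the other groups stayed in these fits, so the groups no longer held the same numbers. With the block and a whole replicate number left out, the median stayed below 0 at 2.01 µM raloxifene (-0.28 to -0.02). It stayed above 0 at 0.00201 µM raloxifene (0.13 to 0.54) and 4.05 µM resorcinol (0.01 to 0.21). At the other lower doses it could turn sign. No member was called at any of these 8 dose groups with or without the block, and no member had an unadjusted p under 0.05 without it, by limma. Over all genes, unadjusted p-values under 0.05 made up 0.852%, 0.582%, 0.312% and 1.15% from 2.01 down to 0.00201 µM raloxifene. From 40.5 down to 0.0405 µM resorcinol they made up 0.802%, 0.465%, 0.311% and 0.904%. With the block, limma gave such p-values to 1 of 31 members at 0.201 µM and 2 of 31 at 0.00201 µM raloxifene. It gave them to 1 of 32 at 0.405 µM resorcinol and 0 at the other lower doses, and these members were all higher. Over all genes, 1864 and 2678 of 19241 had them at the 2 raloxifene doses, beside 2363 at 20.1 µM. At 0.405 µM resorcinol 577 of 19583 did. The share of all genes called without the block was 0.00511% at 40.5 µM and 0% at the other 7. With the block it was 0.0208%, 0.0156%, 0% and 0.0987% from 2.01 down to 0.00201 µM raloxifene, 0.0664% at 40.5 µM resorcinol and 0% below. A limma F test over all 5 doses called 0 members for either compound, where it called 0.078% and 0.0409% of genes for raloxifene and resorcinol. With the block it also called 0, against 1.83% and 0.225%. With edgeR and the block ctrl was called for raloxifene and 1 member for resorcinol, beside 1.84% and 0.342% of genes.

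The highest dose was also compared with the next lower one, a comparison added after the data were seen. The median log2 difference of the members was 1.05 for 405 against 40.5 µM and 0.84 for 20.1 against 2.01 µM, and 0 members were called without the block, where 0% and 0.0416% of genes were. No member had an unadjusted p under 0.05 without the block, beside 1.07% and 1.51% of genes. With the block, prss1 (log2 difference 0.94, adjusted p = 0.0284 by limma) and ctrl (1.09, adjusted p = 0.0201 by limma) were higher at 20.1 than at 2.01 µM, where 0.353% of genes were called higher and 0.899% in either direction. Unadjusted p-values under 0.05 were found for 21 of 31 members, against 10.2% of all genes. For resorcinol none was called, beside 0.0102% of genes, the lowest adjusted p by limma being 0.222, while 28 of 32 members had an unadjusted p under 0.05 against 9.98% of all genes. These comparisons share the highest-dose pools with those against the carrier control.

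Lists of other genes gave smaller medians than the enzymes, a difference that was not tested. Among 14 tested genes of other acinar secretion functions the median log2 change at 405 µM was 0.22, and among 41 genes of the endoplasmic reticulum secretory pathway it was 0.06. Among 11 acinar regulators the median was 0.07, and for endocrine pancreas, pancreatic duct, liver and intestinal enterocyte markers the medians were 0.06, -0.01, 0.09 and 0.20. None of these genes was called at 405 µM with or without the block, where 0.327% and 0.0306% of all genes were. At 20.1 µM the medians were 0.35 for other acinar secretion genes, 0.07 for the secretory pathway and 0.01 for the regulators. For endocrine pancreas, pancreatic duct, liver and intestinal enterocyte markers they were -0.13, -0.03, -0.03 and -0.42. With the block, VAMP8, a vesicle fusion protein, rose by 0.53 (1 of 13) and PDIA3, a disulfide isomerase, by 0.26 (1 of 41), with adjusted p = 0.0444 and 0.0353 by limma. Over all genes 0.873% were called higher there.

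At 20.1 µM raloxifene 4 of 22 tested enterocyte genes fell with the block by limma, ANPEP by 1.04, FABP1 by 1.00, FABP6 by 0.93 and MEP1B by 0.73 on the log2 scale. The list's median was -0.42 and 20 of its 22 genes did not exceed 0. Of 15 liver genes ahsg2 fell by 1.56 and uox by 0.99, and no endocrine or duct gene was called at this dose. Over all genes, 74 of 19241 were called lower with the block. Over all raloxifene doses, the F test with the block called NEUROD1 and SST of the endocrine list (adjusted p = 0.0251 and 0.0483 by limma). It also called CUBN, SEC61A1, ahsg2 and the 4 enterocyte genes named above, beside 1.83% of all genes. The summed enterocyte level was 9787 to 32217 in the raloxifene control and 8034 to 19525 at 20.1 µM, and 9760.3 to 52231 and 9863 to 48761 in the resorcinol groups. The part of these organs in the enzyme levels was not tested.

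Among 19027 other genes tested in both tables, a few had a library-to-library pattern close to the mean of the enzyme set. Likeness was the lower of the 2 correlations with the members' mean log2 level, each over 30 libraries that share depth and replicate number. APOD, a lipocalin that binds small lipids, came first at 0.987, followed by si:dkey-14d8.6 at 0.972. Next came c6ast4 at 0.966 and c6ast3 at 0.965, both genes of the astacin family of metalloproteases. ENDOU (0.941), tcnba (0.915), si:dkey-14d8.7 (0.909), aqp12 (0.897), apoea (0.897) and myhb (0.883) completed the 10. Of these, c6ast4, c6ast3, ENDOU and aqp12 belong to the list of other acinar secretion genes used above. With replicate-number means removed, APOD kept 0.948 and 0.927 in the raloxifene and resorcinol tables and c6ast4 0.944 and 0.954, whereas myhb had 0.267 and 0.213.

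APOD had a normalized count of 682 ± 492 in the resorcinol control and 1191 ± 671 at 405 µM (SD, n = 5), higher in 5 of 5 pairs. In the raloxifene table it was 345 ± 322 in the control and 625 ± 791 at 20.1 µM (SD, n = 5), higher in 3 of 5 pairs.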

How the data were processed

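RNA was taken from 60 pools of 20 whole larvae and sequenced after poly(A) selection with a stranded kit, per the labels' protocols. For each compound the authors deposited a table of normalized counts, treated here as a signal: whole read counts scaled by a factor for the library. The submitters' processing notes name cutadapt, STAR, DESeq2 and GRCz11, without roles. No source used here states how reads were assigned to genes or strands. Values were whole multiples of 1 read for 100% of entries at a tolerance of 0.1 read, and these recovered reads gave the depths. Their number limits precision for genes with few counts.

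The members and lists were chosen with earlier results of these data known. Tests took genes that reached 10 normalized counts in 5 or more libraries, 19241 for raloxifene and 19583 for resorcinol. limma 3.58.1 with an intensity trend was fitted to log2(normalized count + 1) over all 30 libraries of a compound in 6 groups, with Benjamini-Hochberg adjustment over all genes and calls at an adjusted p under 0.05. Fold changes on this scale understate those of low genes. Alternatives were the replicate number as a block, edgeR 4.0.16 and DESeq2 1.42.0 on recovered reads, other scalings, pseudocounts and filters, and leaving out pools. The fits were also run on simulated data, and the outcome is not reported here. Replicate numbers come from the titles. They were taken to pair the pools because the deviations of same-numbered pools from their group means correlated for all 75 pairs of pools of each compound, at 0.344 to 0.925 for raloxifene and 0.194 to 0.864 for resorcinol. Nothing says that pools came from separate clutches, so the p-values speak only of pool-to-pool spread, which may be technical. In each role class the member with the highest mean was named with its values. So were the members that limma called at a dose with or without the block. Genes of the other lists were named where limma called them at a dose against the control or over all doses. The 10 genes most alike in pattern were named too. CPB1 and the members that set a range or stood apart in correlation were named after their values were seen. Some members are counted in sums and totals but their own values are not reported here.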

Additional observations from a re-analysis of the deposited data

Results flagged for a closer look

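In 12 of 156 groups of 5 pools checked, 1 pool stood apart from the other 4 by over 0.71 of the group's range. That limit flags about 1 in 20 groups of normally distributed values. The counts were used without a log scale and their shape was not tested, so 1 in 20 is no baseline for the 12. All 12 came from replicate 4, and 11 were high enzyme, SYCN or pdia2 counts in its raloxifene pools at 20.1, 0.201 and 0.0201 µM. The genes share these pools, so the 12 are not separate events.

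At 20.1 µM raloxifene, replicate 4 had a normalized count of 4477 for ctrb.1, where the other 4 pools had 138 to 1230.1. It had 817 for SYCN ENSDARG00000103687, beside 35.6 to 220.2, and 406 for pdia2, beside 24.4 to 106. At 0.201 µM, replicate 4 had 3956 for ctrb.1, 3430.1 for CPA1 ENSDARG00000021339, 814 for CEL ENSDARG00000017490, 2043 for amy2a, 540.4 for SYCN ENSDARG00000103687 and 363 for pdia2. At 0.0201 µM it had 515 for SYCN ENSDARG00000103687 and 278 for pdia2. In the resorcinol control, replicate 4 had 37.0 for PTF1A, beside 9.15 to 14.8 in the other pools, and it was the control pool with the lowest summed enzyme level.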

How the results depend on the processing

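Without the replicate block, 0 members were called at any dose or over all doses with pseudocount 10, no level filter, a filter of 50, edgeR, DESeq2, quantile normalization or scaling from non-members. Fits of only the 2 groups and those leaving out each pool in turn, run for single doses, also called 0. With the replicate block the count was 2 at 405 µM resorcinol and 1 at 20.1 µM raloxifene. With edgeR and the block it was 4 and 1, and 1 over all doses of each compound. Added after the data were seen, the block with quantile normalization gave 1 and 1, and with scaling from non-members 2 and 1. The block without each replicate number in turn gave 0 to 3 at 405 µM and 0 to 1 at 20.1 µM. At 405 µM 0 were called without replicate 1 or 2, and 3 without replicate 4. At 20.1 µM ctrl was lost without replicate 2, 3 or 4. The block changed no other call at a dose against the control.

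In the fit without the block, 1 pool was left out at a time while its same-numbered pools stayed. The median log2 change of the members then moved between 0.50 and 1.38 at 405 µM and between 0.15 and 1.15 at 20.1 µM. At the lower raloxifene doses, from 2.01 µM down, it ranged from -0.64 to 0.37, -0.61 to 0.61, -0.38 to 0.56 and -0.08 to 0.84. At the lower resorcinol doses, from 40.5 µM down, it ranged from -0.48 to 0.66, -0.28 to 0.58, -0.28 to 0.76 and -0.48 to 0.46. With the block and a whole replicate number left out, the median was 0.78 to 1.05 at 405 µM and 0.47 to 0.91 at 20.1 µM. Without the block and the 20.1 µM pool of replicate 4, the log2 change was -0.21 for SYCN ENSDARG00000103687 and -0.010 for pdia2. The control pool of replicate 4 was kept there. Over all left-out pools the log2 change reached 0.92 and 0.99. PTF1A at 405 µM turned to -0.062 with edgeR, -0.037 with edgeR and the block, and -0.064 with DESeq2, and ranged from -0.12 to 0.35 when 1 pool was left out. The cause was not tested. The searches of promoters and proteins planned for this set were not run.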
